A study of Mus musculus with 2 samples.

Results

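The 8 genes described here, *Fkbp5*, *Sgk1*, *Tsc22d3*, *Zbtb16*, *Pdk4*, *Errfi1*, *Plin4* and *Sult1a1*, are genes that glucocorticoids are known to induce. They were chosen by symbol, and every array probe that carries 1 of these symbols was taken, which gave 16 of 56605 probes and 8 of 36998 gene names. Gene expression was measured on 2 single-colour microarrays, 1 for WT mice (strain C57BL/6J in the labels) and 1 for Cx30 KO mice (strain Cx30-LacZ in the labels), which lack the astrocyte gap junction protein connexin 30. Each array was hybridised with striatal RNA pooled from 2 male mice aged 8 weeks, killed on day 1 after MPTP, given as 4 injections of 20 mg/kg every 2 h. MPTP is a toxin that destroys dopaminergic neurons. Both groups received MPTP, and arrays after saline were not analysed here. The values therefore compare the genotypes after MPTP, not a response to MPTP or to a hormone. The deletion is carried by every cell of the KO mice, not by astrocytes alone. In the methods the WT controls are non-mutant descendants of bred heterozygotes, whereas the labels give the 2 groups different strains, so the deletion and the genetic background cannot be told apart. With 1 pooled array per genotype there was no replicate, no test between the genotypes was possible, and each ratio describes these 2 arrays.

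Glucocorticoids such as corticosterone enter cells and bind the glucocorticoid receptor, which is held ready in the cytoplasm by heat shock proteins and their co-chaperones. The bound receptor moves to the nucleus and activates genes at response elements, which are inverted repeats of a short half-site. In the brain, corticosterone rises with stress and illness, and the genes described here respond in neurons, glia and blood vessel cells.

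The sequences around the start sites are shown first because a receptor response element can be read from them directly. RefSeq promoter windows (GRCm38.p6 build, 250 bases before and 50 after each start site) were found for 7 of the 8 genes, 15 windows in all. Of the 15, 6 belonged to *Sgk1* and 3 to *Tsc22d3*, so a share of these windows is not a share of genes. The full palindromic element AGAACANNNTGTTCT, searched on both strands, was in 3 of 32851 windows of all genes (0.00913%), and 1 of these 3 belonged to *Sgk1*. The match lies at chr10:21993701-21993715, 174 bases before the nearest *Sgk1* start site and 950 bases before the next. The shorter core ACANNNTGT, which the full element contains, was in 6.85% of all windows and in 2 of the 15 windows, both of *Sgk1*. The half-site AGAACA, which also overlaps the full element, was in 19.0% of all windows and in 5 of the 15, 3 of *Sgk1* and 1 each of *Sult1a1* and *Tsc22d3*. In the following 250-base stretches, each ending at the base before a start site and written along the gene's strand, capitals mark the half-sites on either strand and the full element of *Sgk1*. They comprise the *Sgk1* stretch with the full element (chr10:21993640-21993889, plus strand), the *Sult1a1* stretch (chr7:126676419-126676668, minus strand), the *Tsc22d3* stretch with a half-site (chrX:140600523-140600772, minus strand), and those of the 2 genes highest in Cx30 KO, *Fkbp5* (chr17:28486150-28486399, minus strand) and *Plin4* (chr17:56109783-56110032, minus strand), where these letters were not found.
Sgk1: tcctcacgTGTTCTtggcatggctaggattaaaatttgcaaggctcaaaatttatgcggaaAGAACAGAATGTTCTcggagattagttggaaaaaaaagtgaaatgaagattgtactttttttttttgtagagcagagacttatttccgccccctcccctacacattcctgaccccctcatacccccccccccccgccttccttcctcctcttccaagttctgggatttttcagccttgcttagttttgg
Sult1a1: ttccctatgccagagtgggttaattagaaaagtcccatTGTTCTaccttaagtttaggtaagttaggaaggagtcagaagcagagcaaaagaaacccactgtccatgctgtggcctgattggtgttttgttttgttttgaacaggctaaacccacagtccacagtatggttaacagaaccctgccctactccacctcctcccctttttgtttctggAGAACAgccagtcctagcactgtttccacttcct
Tsc22d3: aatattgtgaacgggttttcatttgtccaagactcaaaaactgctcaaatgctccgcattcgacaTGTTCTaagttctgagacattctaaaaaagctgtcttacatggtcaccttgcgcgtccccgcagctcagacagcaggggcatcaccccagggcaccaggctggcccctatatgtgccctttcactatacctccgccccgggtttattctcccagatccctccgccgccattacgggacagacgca
Fkbp5: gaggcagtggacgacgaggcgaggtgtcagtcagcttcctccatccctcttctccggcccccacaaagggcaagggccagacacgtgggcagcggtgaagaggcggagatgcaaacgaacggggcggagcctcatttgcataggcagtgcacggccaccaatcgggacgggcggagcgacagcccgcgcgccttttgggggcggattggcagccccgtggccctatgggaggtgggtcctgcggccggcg
Plin4: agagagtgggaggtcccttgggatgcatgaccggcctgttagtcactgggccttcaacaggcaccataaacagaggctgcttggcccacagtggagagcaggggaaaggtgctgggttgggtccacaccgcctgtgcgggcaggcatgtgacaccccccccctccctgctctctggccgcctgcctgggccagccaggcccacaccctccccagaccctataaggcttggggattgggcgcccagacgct
The windows of *Pdk4* and of *Errfi1*, the gene of the 8 lowest in Cx30 KO relative to WT, also held no half-site and are not shown. A match describes letters in a window and does not show that the receptor binds there, and response elements of these genes can lie outside the windows.

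The array measured each gene with probes of 60 bases. Probe positions are those of the array files (mm9 build), and exon annotation of that build was not used here. The probe sequences of *Fkbp5* (A_52_P481493, chr17:28574995-28575054, minus strand), *Zbtb16* (A_66_P119534, minus strand of chr9 between 48473399 and 48525415, a stretch of 52017 bases for 60 bases of probe) and *Sult1a1* (A_55_P2005475, chr7:133816657-133816716, minus strand) are shown as examples, because each could be set beside a second detected probe of the same gene. They are in lower case throughout, since all 60 bases take part in the hybridisation.
Fkbp5 A_52_P481493: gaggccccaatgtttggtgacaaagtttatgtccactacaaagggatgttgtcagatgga
Zbtb16 A_66_P119534: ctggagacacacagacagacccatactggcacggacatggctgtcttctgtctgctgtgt
Sult1a1 A_55_P2005475: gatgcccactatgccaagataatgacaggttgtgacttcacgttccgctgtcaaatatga

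As a check of the labels, the targeted gene *Gjb6*, which encodes connexin 30, had a processed signal of 1788 ± 179 (software error of the spot) in WT against 111 ± 11.6 in Cx30 KO at its brightest probe (A_52_P482251, chr14:57742226-57742285). Expressed as Cx30 KO over WT, the log2 ratio was −3.94, which is 15.4-fold lower. A second *Gjb6* probe was above background in WT alone and at least 4.33-fold lower in Cx30 KO. Both arrays carried the markers of the labelled tissue: all 9 markers of striatal neurons were well above background on both arrays, and none met the limits described next. This does not show that the 2 pools matched in tissue. Of 8 cortical neuron markers, 5 were higher in Cx30 KO by those limits, as given below.

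A probe counted as higher in Cx30 KO by the study's limits when its ratio was at least 1.5 and its Z-score at least 2.0, and as lower when its ratio was at most 0.66 and its Z-score at most −2.0. The Z-score sets a log2 ratio against the mean and SD of the 1000 probes nearest in signal. The brightest probe stood for each gene. Of the 8 genes, 2 (*Plin4* and *Fkbp5*) were higher in Cx30 KO by these limits, where 2.37% of all 22008 detected genes were. The count was 1 in 4 of 10 other settings, scaling by the median among them, since *Fkbp5* no longer met the limits. None of the 8 was lower, where 3.39% of detected genes were. At the level of probes, 13 of the 16 were well above background on both arrays and 3 on neither, 2 of the 13 were higher against 2.07% of 33910 detected probes, and 0 were lower against 2.93%. The median log2 ratio of the 8 genes was 0.28, compared with 0.03 for all detected genes, whose quartiles were −0.17 and 0.21. It was above 0 for 6 of the 8 genes and for 54.6% of all detected genes, although *Tsc22d3* lay just below 0 when arrays were scaled by their median. These shares are descriptions of 2 arrays, and no chance level was attached to them.

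**Figure D1:**
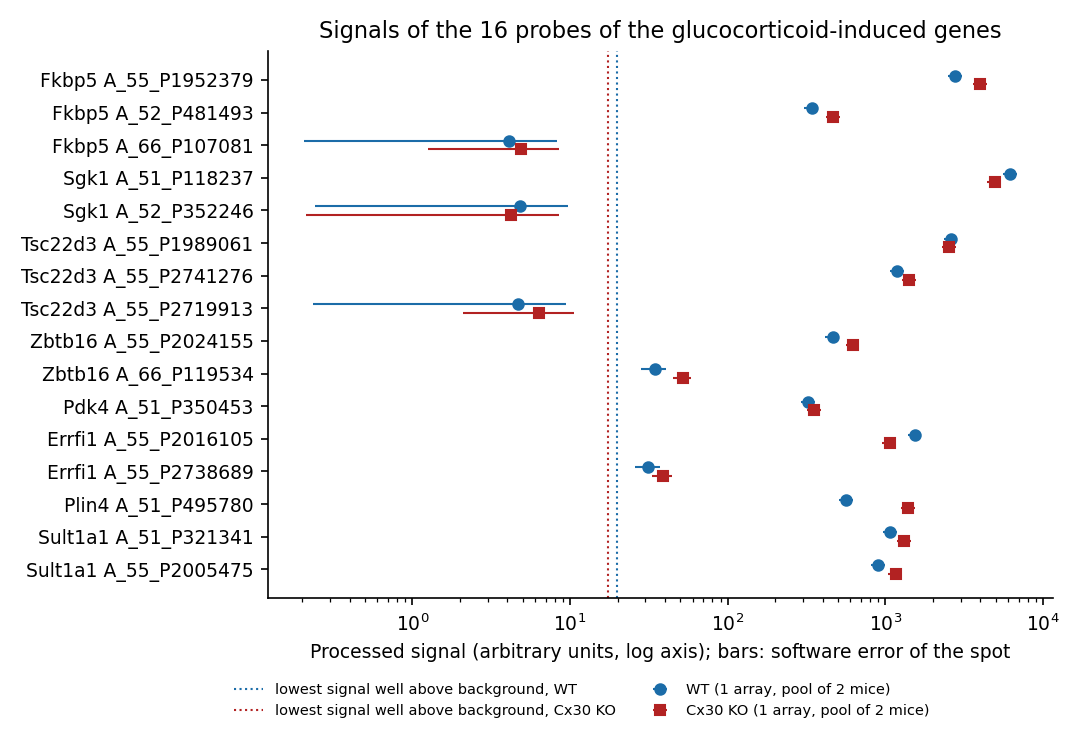
Processed signal (arbitrary units, log axis) of each of the 16 probes on the WT array (circles) and the Cx30 KO array (squares), with bars for the software's error of the spot (cut short where they would reach 0) and dotted lines at the lowest signals well above background, 19.8 in WT against 17.4 in Cx30 KO. Only 3 probes lie below the dotted lines, and the gap between the genotypes is widest for *Plin4*.

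The spread against which a single ratio can be read came from 3 sources. Probes spotted 10 times on the array had a spot SD of 0.06 in the log2 ratio (262 probes). The software's own error gave 0.20 to 0.33 for the log2 ratio of the 13 detected probes. Different probes of a gene varied with a pooled SD of 0.26 (7147 genes). None of these contains the spread between mice. For 4 genes, *Plin4*, *Fkbp5*, *Zbtb16* and *Errfi1*, the log2 ratio of the brightest probe was further from 0 than 2 software errors.

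*Fkbp5* encodes FKBP51, a co-chaperone that lowers the affinity of the glucocorticoid receptor for hormone and so forms a feedback loop. Its brightest probe (A_55_P1952379, chr17:28536060-28536119) had a signal of 2778 ± 278 in WT against 4006 ± 401 in Cx30 KO. The signal was higher in Cx30 KO at a log2 ratio of 0.60 ± 0.20 (software error), which is a ratio of 1.52, and with a Z-score of 2.09, just inside both limits. Only 6.91% of detected genes had a higher log2 ratio. The second detected probe, which lies 38935 bases away and whose sequence is shown above, had 340.2 ± 34.4 in WT against 468.2 ± 47.0 in Cx30 KO. Its log2 ratio of 0.53 was in the same direction but just outside the limits, at a ratio of 1.45 and Z-score 1.67. The 2 probes differed by 0.07, and a gap at least as wide was seen in 75.4% of the 4657 genes with 2 detected probes. The third *Fkbp5* probe was not above background on either array, with signals of 4.10 and 4.90.

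*Tsc22d3*, also known as GILZ, encodes a leucine zipper protein that inhibits inflammatory transcription factors. Its brightest probe (A_55_P1989061, chrX:137074094-137074153) had 2596 ± 260 in WT against 2546 ± 255 in Cx30 KO. The log2 ratio after scaling was 0.04, smaller than its error of 0.20, and 47.9% of detected genes lay above it. A second probe 707 bases away had 1188 ± 119 and 1413 ± 141, with a log2 ratio of 0.32 at Z-score 1.20. Neither probe met the limits, so a widely used marker of receptor activity differed little between these arrays at its brightest probe. The third probe was not above background on either array, at 4.68 and 6.36.

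*Zbtb16*, also known as PLZF, encodes a zinc finger transcription factor. Its brightest probe (A_55_P2024155, chr9:48462419-48462478) had 462.2 ± 46.5 in WT against 622.0 ± 62.4 in Cx30 KO. The log2 ratio was 0.50 ± 0.20, which is a ratio of 1.41 at Z-score 1.59, so *Zbtb16* did not meet the limits. The dim second probe, shown above, had 34.4 ± 6.18 and 51.9 ± 6.92, which is a ratio of 1.59 at Z-score 1.08. Its ratio was past 1.5 but its Z-score was below 2.0. Both probes were higher in Cx30 KO, and their log2 ratios differed by 0.17.

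*Sgk1* encodes a serum- and glucocorticoid-regulated kinase that controls ion channels and transporters. The detected probe (A_51_P118237, chr10:21719390-21719449) had 6199 ± 620 in WT against 4927 ± 493 in Cx30 KO. The gene with the full palindrome in a promoter window was thus slightly lower in Cx30 KO at a log2 ratio of −0.26 ± 0.20 (ratio 0.835) and a Z-score of −1.12, outside the limits. Of all detected genes, 82.1% had a higher log2 ratio. The other *Sgk1* probe, designed on another transcript, was not above background on either array, at 4.84 and 4.23.

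*Errfi1*, also known as MIG6, encodes an inhibitor of the epidermal growth factor receptor. Its brightest probe (A_55_P2016105, chr4:150242886-150242945) had 1534 ± 153 in WT against 1062 ± 106 in Cx30 KO. This was the lowest log2 ratio of the 8 genes, −0.46 ± 0.20, which is a ratio of 0.727 at Z-score −1.70, outside the limits. A dim probe 13037 bases away (A_55_P2738689, chr4:150229849-150229908) was designed on another transcript. It had 31.4 ± 5.57 and 38.8 ± 5.66, with a log2 ratio of 0.38 ± 0.33 at Z-score 0.48. For *Errfi1* the probes thus pointed in opposite directions and differed by 0.84, a gap reached in 3.48% of genes with 2 detected probes of any signal. Opposite signs alone were seen in 33.8% of those genes.

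**Figure D2:**
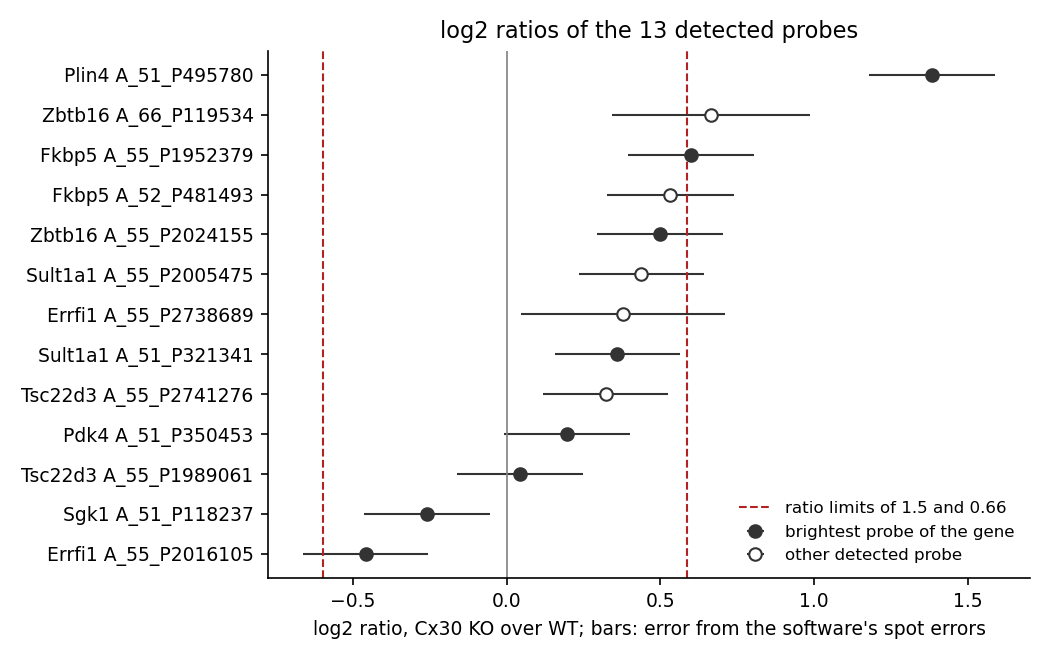
log2 ratio of Cx30 KO over WT of the 13 detected probes, in order of size, with the brightest probe of each gene filled, other probes open, bars for the error propagated from the software's spot errors and dashed lines at the ratio limits of 1.5 and 0.66. *Plin4* lies apart at 1.38, both *Fkbp5* probes sit near the upper limit, and the 2 *Errfi1* probes lie on opposite sides of 0.

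The remaining 3 genes act in metabolism. *Plin4* encodes perilipin 4, a protein that coats lipid droplets. Its single probe (A_51_P495780, chr17:56240055-56240114) had 561.8 ± 56.3 in WT against 1396 ± 140 in Cx30 KO. This was the highest log2 ratio of the 8 genes, 1.38 ± 0.20, which is a ratio of 2.61 at Z-score 4.74. Only 1.94% of detected genes had a higher log2 ratio, and no second probe was at hand to check it.

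*Pdk4* encodes a kinase that shuts down pyruvate dehydrogenase and spares glucose. Its single probe (A_51_P350453, chr6:5433441-5433500) had 323.9 ± 32.7 in WT against 352.9 ± 35.5 in Cx30 KO. The log2 ratio of 0.20 was smaller than its error of 0.21, and the Z-score was 0.58. *Sult1a1* encodes a sulfotransferase that conjugates phenols and catecholamines. Its brightest probe (A_51_P321341, chr7:133816605-133816664) had 1074 ± 108 in WT against 1312 ± 131 in Cx30 KO (log2 ratio 0.36, Z-score 1.35). The second probe, shown above, had 900.0 ± 90.1 and 1160 ± 116, giving a log2 ratio of 0.44 at Z-score 1.58. Both were higher in Cx30 KO without meeting the limits, but the probes share 8 bases of target and are no independent measurements.

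**Figure D3:**
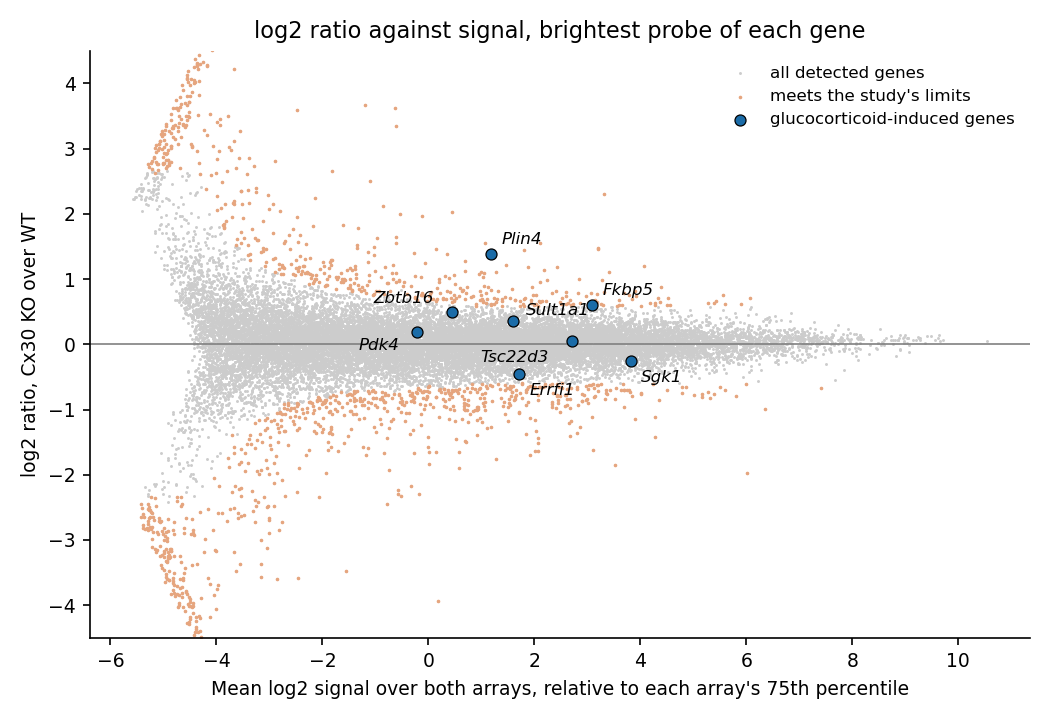
log2 ratio of Cx30 KO over WT against mean log2 signal of the brightest probe of each detected gene (grey), with genes that meet the study's limits in orange and the 8 glucocorticoid-induced genes in blue. *Plin4* lies well above genes of like signal and *Fkbp5* at the edge of the orange band, whereas the other 6 lie among the grey points (34 genes lie outside the vertical axis).

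The genes that carry the hormone signal were read next. The glucocorticoid receptor gene *Nr3c1* had 4356 ± 436 in WT against 3788 ± 379 in Cx30 KO, a log2 ratio of −0.13. The mineralocorticoid receptor gene *Nr3c2*, whose product binds the same hormone with higher affinity, had 1800 ± 180 and 1668 ± 167, a log2 ratio of −0.04. Both differences were smaller than the error of 0.20, and 0 of the 2 receptors met the limits.

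Of 11 genes for receptor chaperones, 9 had a log2 ratio below 0, as had 9999 of all 22008 detected genes. The median was −0.31, compared with 0.03 for all detected genes. The heat shock protein gene *Hspa1a* had 502.8 ± 50.5 in WT against 306.6 ± 31.0 in Cx30 KO. It was the 1 chaperone gene lower by the limits (log2 ratio −0.64, Z-score −2.08), where 3.39% of all detected genes were. Of the chaperone genes, 0 were higher. The constitutive chaperone gene *Hspa8* had 36585 in WT against 23527 in Cx30 KO, a log2 ratio of −0.57 and a Z-score of −3.22, but its ratio of 0.676 missed the limit. *Fkbp4* encodes FKBP52, the relative of FKBP51 that favours hormone binding, and had 5798 ± 580 in WT against 4027 ± 403 in Cx30 KO. Its log2 ratio of −0.45 was opposite in sign to that of *Fkbp5*, and it did not meet the limits. *Ppid* and *Dnajb1*, further (co-)chaperone genes, had log2 ratios of −0.34 and −0.32. Of 14 coregulator genes, 7 lay above 0 and 7 below, where 54.6% of all detected genes lay above 0. Of the 14, 0 met the limits, and the median was 0.00. At the brightest probes, the largest differences among them were log2 ratios of −0.30 for *Med14*, −0.25 for *Smarca4*, 0.23 for *Ncor1* and −0.22 for *Nrip1*. The detected probes of *Med14* ran from −0.30 to 0.52 and those of *Ncor1* from −0.34 to 0.23, so their direction depended on the probe, whereas all detected probes of *Smarca4* and *Nrip1* lay below 0.

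Of 7 genes of steroid metabolism and export, 5 were detected. *Hsd11b1* encodes the enzyme that regenerates active corticosterone from its inert form, and its signal was 683.8 ± 68.6 in WT against 388.4 ± 39.1 in Cx30 KO. It was the 1 gene of this list that was lower by the limits, where 3.39% of all detected genes were. Its log2 ratio was −0.74 and its Z-score −2.34. *H6pd*, which supplies that enzyme with its cofactor, had a log2 ratio of 0.23. The steroid reductase gene *Srd5a1* had −0.56, and *Abcb1b* and *Abcb1a*, which encode the P-glycoproteins that export steroids at the blood-brain barrier, had −0.42 and −0.41, and none of these 4 met the limits. *Hsd11b2* and *Akr1c14* were not above background on either array.

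A longer list held 36 other glucocorticoid-induced genes, of which 35 were detected. The median log2 ratio was 0.04, compared with 0.03 for all detected genes. Single log2 ratios were above 0 for 27 genes (77.1%, against 54.6% of all detected genes), and for 17 genes (48.6%, against 47.3%) when arrays were scaled by their median. By the limits, 3 genes were higher (8.57%, against 2.37%) and 1 was lower (2.86%, against 3.39%). The cell cycle inhibitor gene *Cdkn1a* had 978.8 ± 98.0 in WT against 2108 ± 211 in Cx30 KO, a log2 ratio of 1.18 and a Z-score of 4.26. *Angptl4*, which encodes an inhibitor of lipoprotein lipase, had 539.3 ± 54.1 and 1079 ± 108, a log2 ratio of 1.07 and a Z-score of 3.59. *Camk1g*, a calcium-dependent kinase gene, had 7150 ± 715 and 11185 ± 1119, a log2 ratio of 0.72 at Z-score 3.13. The transcription factor gene *Cebpd* was lower, with 6911 ± 691 in WT, 4039 ± 404 in Cx30 KO and a log2 ratio of −0.70. These 4 genes thus lay on both sides of a list whose median was near 0. *Hif3a*, *Map3k6* and *Arrdc2* had log2 ratios of 0.51, 0.47 and 0.45 without meeting the limits. *Lyve1* was above background in Cx30 KO alone, at least 1.29-fold higher and outside the limits, and *Calm4* was not above background on either array.

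**Figure D4:**
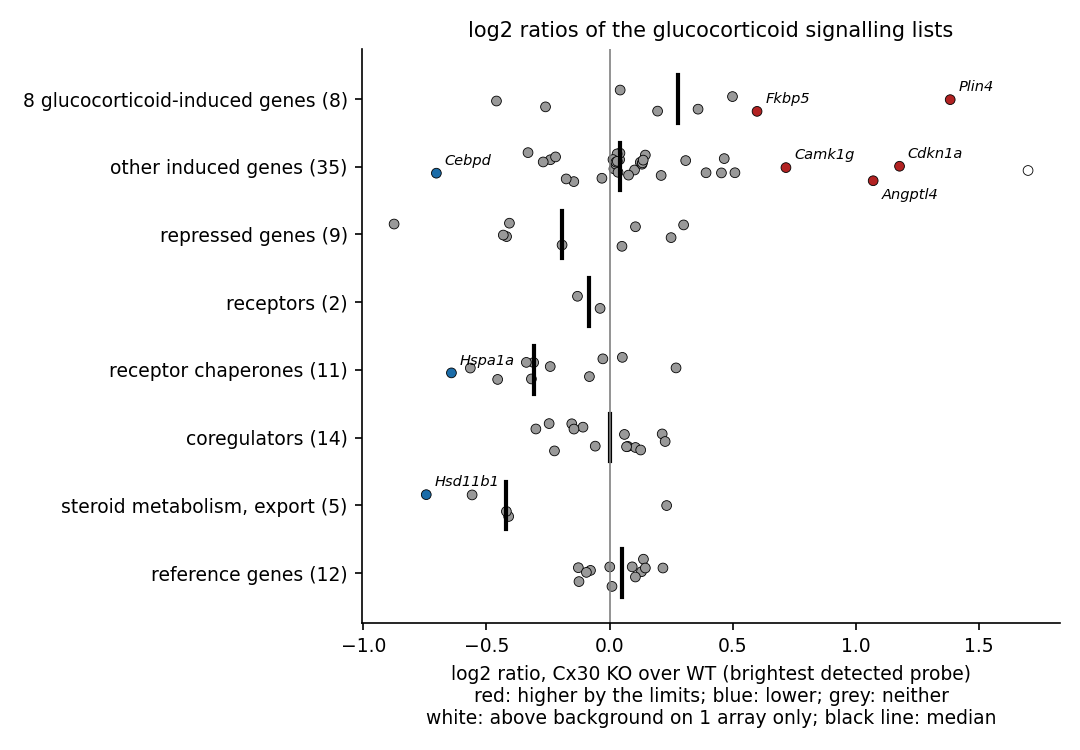
log2 ratio of Cx30 KO over WT of the detected genes of each glucocorticoid signalling list (number in brackets), with genes higher by the limits in red, lower in blue, others in grey, *Lyve1* (above background on 1 array) in white and a black line at each median. The medians run from −0.42 for steroid metabolism and export to 0.28 for the 8 glucocorticoid-induced genes, whereas the 12 reference genes lie close to 0 with a median of 0.05.

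Of 14 genes that glucocorticoids repress, 9 were detected. Their log2 ratio was above 0 for 4 and below for 5, where 54.6% of all detected genes lay above 0. The median was −0.19 and 0 met the limits in either direction. The corticotropin-releasing hormone gene *Crh* had 76.8 ± 9.19 in WT against 39.8 ± 6.04 in Cx30 KO, a log2 ratio of −0.88 at Z-score −1.70. The immediate early gene *Fos* had a log2 ratio of −0.43, the chemokine gene *Ccl2* −0.42 and the adhesion molecule gene *Vcam1* −0.41 at its brightest probe and −0.04 at another. Of the 4 above 0, the highest was the cytokine gene *Tnf*, named after its values were seen, with 0.30 and 0.36 at its 2 detected probes. The inflammatory genes *Il1b*, *Il6*, *Ptgs2*, *Mmp9* and *Mmp13* were not above background on either array, so they could not be compared. None of 12 reference genes met the limits, and their median was 0.05.

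Markers of several cell types differed between the arrays, and in bulk tissue fewer cells of a type and less RNA per cell cannot be told apart. The summed signals given for each list are as deposited, before the scaling that the log2 ratios carry. Beside the counts of each list, 2.37% of all detected genes were higher by the limits and 3.39% lower. A log2 ratio below 0 was seen in 9999 of the 22008 detected genes. Of 8 cortical neuron markers, 5 were higher in Cx30 KO by the limits and the median log2 ratio was 2.86 (1.52 with genes above background on 1 array set at their bound). *Slc17a7*, *Neurod6* and *Emx1* exceeded background in Cx30 KO but not in WT, whereas the brightest gene of this list, *Nrgn*, had −0.14 and the summed signal was 20210 in WT against 18858 in Cx30 KO. All 10 oligodendrocyte markers lay below 0 and 6 were lower by the limits, with a median of −0.70 and a summed signal of 198198 in WT against 125406 in Cx30 KO. Of 8 microglia markers, 4 were lower, the median being −0.52 and the summed signals 91249 and 83919. Most of these sums came from *Itgam*, the 1 marker above 0 (log2 ratio 0.13), whereas the other 7 lay below 0. Of 10 astrocyte markers, 2 were lower, the median being −0.20, with summed signals of 178251 and 152800, and *Aldoc* as the brightest gene.

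For the 9 striatal neuron markers the median was −0.16, and the summed signals were 491715 in WT against 485627 in Cx30 KO, with *Penk* as the brightest, and after scaling by the 75th percentile the Cx30 KO sum was 510270, so the direction of this difference turned with the scaling. Of 8 endothelial markers, 1 was lower, with a median of −0.17 and sums of 19012 and 15982, brightest for *Ly6c1*. Of 7 mural markers, 0 met the limits, with a median of −0.23 and sums of 7397 and 7657, brightest for *Acta2*. Of 6 choroid plexus markers, 1 was lower, with a median of 0.11 and sums of 1634 and 1391, brightest for *Clic6*, and *Kcne2* and *Otx2* were not above background in WT. Of 6 blood markers, 4 were detected and 2 were lower in Cx30 KO, *Hba-a1*, the brightest, and *Hbb-b1*, which was not above background in Cx30 KO. The median of the 4 was −0.37 (−0.17 with genes above background on 1 array set at their bound), and the sums were 3104 and 1086. The other detected pair lay above 0 without meeting the limits, *S100a9* with a log2 ratio of 0.89 (Z-score 1.98) and *S100a8*, not above background in WT, at least 2.26-fold higher. *Alas2* and *Ngp* were not above background on either array. Whether differences in cortical tissue, oligodendrocytes, microglia or blood between the pools took part in the values of the glucocorticoid-induced genes was not tested.

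The order of the 8 genes by log2 ratio was *Plin4*, *Fkbp5*, *Zbtb16*, *Sult1a1*, *Pdk4*, *Tsc22d3*, *Sgk1* and *Errfi1*. The step from *Plin4* to *Fkbp5* was 0.78 on the log2 scale. The other steps were at most 0.30, the one from *Tsc22d3* to *Sgk1*, and the spread between probes of a gene (SD 0.26) is of that size, so neighbours among the 7 genes below *Plin4* did not differ beyond it or by little more. Over the reported values and 10 other settings, *Plin4* ranged from 1.30 to 1.39 and met the limits in all of them. *Fkbp5* ranged from 0.55 to 0.61 and no longer met them in 4 settings, which are given in the closing section. *Errfi1* ranged from −0.51 to −0.04, the upper value being the mean of its 2 probes, and *Tsc22d3* from −0.00 to 0.18. *Zbtb16* stayed between 0.44 and 0.58, *Sult1a1* between 0.31 and 0.40, *Pdk4* between 0.15 and 0.20 and *Sgk1* between −0.31 and −0.22, and none of these 4 met the limits in any setting.

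**Figure D5:**
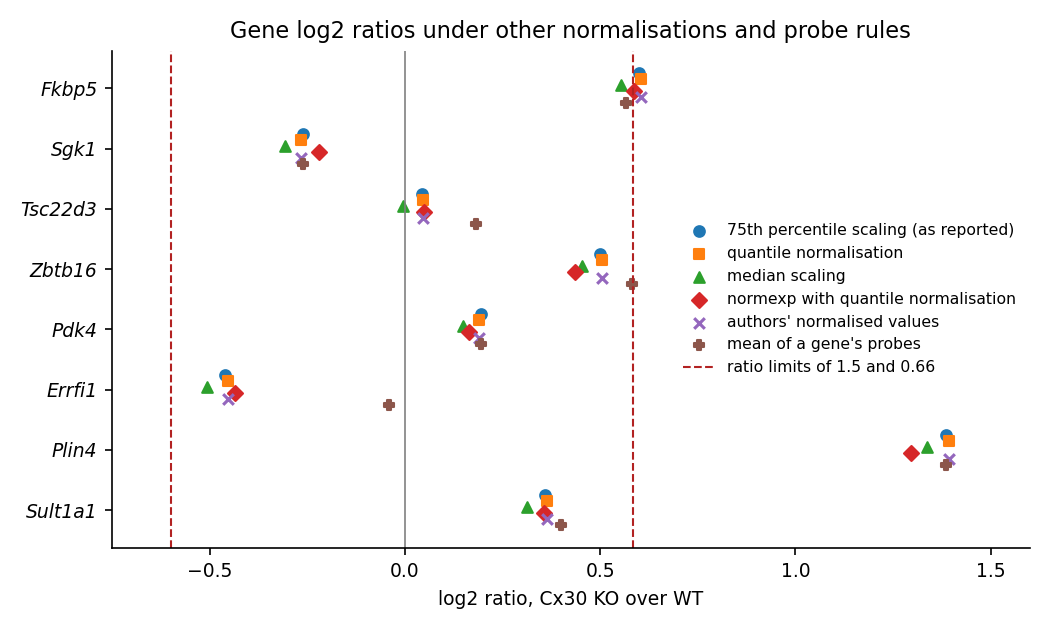
log2 ratio of Cx30 KO over WT of the 8 genes as reported and under 4 other ways of normalising the arrays and the mean over a gene's probes, with dashed lines at the ratio limits. *Plin4* lies beyond the upper limit throughout, *Fkbp5* straddles it, and *Errfi1* moves furthest, when its 2 probes are averaged.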

How the data were processed

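The deposited processed signals are linear intensities, which the authors obtained with Agilent Feature Extraction (background subtraction and detrending within each array), with no normalisation between arrays. The file headers give version 10.7.1.1 and the submitters' processing notes 9.5.1.1. The authors' table of 1 value per probe and array was checked to be quantile-normalised processed signal (99.991% of values within 1%) and served as an alternative. No columns of authors' comparisons were used.

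Control spots and outlier spots were left out, and log2 signals of a probe's spots were averaged and scaled by each array's 75th percentile (401.2 in WT and 381.8 in Cx30 KO, a shift of 0.07 in log2). Probes were taken as above background if the software marked 50% or more of their spots as such (32019 probes in WT, 32961 in Cx30 KO), and 0 probes were saturated. A gene above background on 1 array only was given a bound against the lowest signal above background. Symbols were updated with a RefSeq table (1897 probes). Because the probes behind the study's Z-score are not named, 1000 probes of like signal were used. The calculation was tested on simulated data. Python 3.11.15, pandas 2.3.3, numpy 2.4.6, matplotlib 3.10.9, R 4.3.3 and limma 3.58.1 were used.

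The 8 genes and all lists were chosen with earlier results of these data known. Every probe of the 8 genes is given. From each pathway list, genes that met the limits and the 4 with the largest remaining log2 ratios were named, with both receptors, *Hsd11b1* and *Fkbp4* always, and from each marker list the brightest gene and those at background. Some marker genes are not reported here. With 2 arrays, no gene could be named for a similar pattern across samples. The number of arrays limits the precision. Alternatives were other normalisations, filters, probe rules, Z-score references and ratio limits.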

Additional observations from a re-analysis of the deposited data

How the results depend on the processing

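Of the 8 glucocorticoid-induced genes, 1 instead of 2 was higher in Cx30 KO with scaling by the median, with probes of a gene averaged, with a Z-score over all probes, and with ratio limits of 2 and 0.5. *Fkbp5* was the gene lost in each of these 4 settings. Quantile normalisation, the authors' table, normexp background correction before quantile normalisation, keeping dim probes, genes above background on both arrays, and a Z-score over the 200 nearest probes left the count at 2. Of the other glucocorticoid-induced genes, 1 instead of 3 was higher and 0 instead of 1 was lower with a Z-score over all probes, and 2 were higher and 0 lower with ratio limits of 2 and 0.5. *Gjb6* had a log2 ratio of −3.45 after normexp background correction. Scaling by the median lowered every log2 ratio by the same amount, so the median of the other glucocorticoid-induced genes became −0.00 and that of all detected genes −0.02. Normexp also brought the dim probes closer to 0, with log2 ratios of 0.08 at the dim *Errfi1* probe and 0.25 at the dim *Zbtb16* probe. The counts of all genes, 522 higher and 746 lower, were lowest for higher genes with genes above background on both arrays (328 and 502). They were 392 and 536 with probes of a gene averaged, 408 and 573 with normexp, 502 and 455 with a Z-score over all probes, and 340 and 428 with ratio limits of 2 and 0.5. No paired analysis was possible because each genotype has 1 array, and no replicate could be left out. Signals near the lowest above background limit the dim probes, and the number of arrays limits all ratios.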
